A study of Mus musculus with 8 samples.

Results

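The genes described here are 54 mouse genes of interferon sensing and response: the interferon receptors, the sensors that lead to interferon, the transcription factors between receptor and nucleus, and the genes that interferon switches on. They were chosen by symbol, from a list, out of the 54838 genes in the deposited tables, and all 54 were found. Their RNA was counted by RNA-seq in cultured mouse hepatocellular carcinoma cells, with 8 libraries in all. All derive from 3H3, a line from a liver tumour of a C57BL/6 mouse lacking MC4R and kept on a high-fat diet, and the line carries an Hras mutation, per the labels' protocols. The first group, 3H3P, is 3H3 with Trp53 knocked out by CRISPR/Cas9 and has 1 library. The second, 3H3PM, is 3H3P with ectopic MYC, grown as tumours in nude mice, which lack a thymus and so most T cells. Its 7 libraries are the subclones numbered 1, 2, 3, 6, 7, 8 and 9, each isolated from such tumours and cultured again. Every library therefore carries the Hras mutation and the Trp53 knockout, and ectopic MYC, passage through a mouse and subcloning differ together between the groups and cannot be told apart.

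Type I interferons bind a receptor made of Ifnar1 and Ifnar2, and interferon gamma binds one made of Ifngr1 and Ifngr2. Janus kinases on these receptors activate STAT proteins. Stat2 acts together with Irf9 at the interferon-stimulated response element, while the interferon gamma receptor acts mainly through the gamma-activated sequence. Their target genes block viral entry, translation and replication, and many tumour cells, including those of the liver, express part of this programme without added interferon.

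The libraries held 12838521 to 17987068 expected counts (RSEM's estimates of reads per gene). The 3H3P library stood apart from all 7 subclones in several ways that were measured beside the interferon genes. The 12 hepatocyte marker genes summed to 2031 CPM (expected counts scaled to a common library size) there and to 17.0 to 72.1 CPM in the subclones. Trf, Ass1 and Apob made up most of the sum in the 3H3P library, at 688, 661 and 586 CPM. Alb, Ttr, Apoa1 and Serpina1a were low in all libraries, at most 3.67 CPM in the 3H3P library and 2.08 CPM in any subclone. Cps1 and Cyp2e1 were at 0 in every library. The 9 biliary and progenitor markers summed to 4100 CPM against 701 to 1588 CPM, with Epcam at 0 throughout. Spp1 alone made up 2238 CPM and 366 to 1298 CPM of these sums. In that list 4 genes were called lower and 0 higher. Krt19 (114 CPM against 3.93 to 160 CPM) and Sox9 (37.7 CPM against 8.75 to 69.1 CPM) overlapped between the groups. The 13 macrophage and myeloid markers summed to 372 CPM against 36.3 to 135 CPM, of which Cd14 alone made up 350 CPM and 23.8 to 102 CPM. Csf1r was at 11.5 CPM against 3.77 to 23.5 CPM, S100a8 at 5.72 CPM against 0 to 3.59 CPM and Cd68 at 2.74 CPM against 1.38 to 7.49 CPM. Lyz2 was at 0.498 CPM against 0 to 4.41 CPM, highest in subclone 2. Ptprc, which marks all leukocytes, and Adgre1, Fcgr1, Tyrobp and Fcer1g were at 0 in the 3H3P library and at most 0.153 CPM in any subclone. The 12 fibroblast and stellate markers summed to 119 CPM against 104 to 503 CPM, with Lum and Lrat at 0 throughout. In that list Dcn was at 116 CPM against at most 0.0692 CPM, Pdgfrb at 0.747 CPM against 94.4 to 143 CPM and Pdgfra at 0.436 CPM against 2.13 to 349 CPM. Col3a1 was at 0 CPM against 0 to 18.3 CPM and Acta2 at 0.560 CPM against 0.533 to 13.7 CPM. Col1a1 was at 0.871 CPM against 0.415 to 6.23 CPM, Postn at 0 CPM against 0 to 4.28 CPM and Col1a2 at 0.187 CPM against 0 to 1.38 CPM. The 10 endothelial markers summed to 4.79 CPM against 8.76 to 17.4 CPM, mostly Egfl7 (2.30 CPM against 7.17 to 14.4 CPM) and Eng, with Tie1 and Emcn at 0 throughout. Of 10 markers of lymphocytes and plasmacytoid dendritic cells, 8 were at 0 in every library and the sum was at most 0.0662 CPM. Trp53 was at 212 CPM in the 3H3P library and at 46.7 to 66.6 CPM in the subclones, and mouse Myc at 85.2 CPM and 3.57 to 11.6 CPM. RNA level does not check a frameshift knockout, and ectopic MYC need not be counted as the mouse gene, so the labels are used as names. Mitochondrial genes took 3.18% of counts in the 3H3P library and 1.97% to 2.31% in the subclones. The part of these differences in the interferon results was not tested. In bulk libraries, fewer cells of a type and less RNA per cell cannot be told apart.

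Of the 54 genes, 50 had enough counts to be tested in 3H3PM against 3H3P, which asks how the interferon programme of the subclones differs from that of the cells they came from. With edgeR's quasi-likelihood test and Benjamini-Hochberg adjustment over all 14634 genes tested, 13 interferon genes were lower in the subclones, 1 was higher and 36 did not pass an adjusted p of 0.05. The 13 lower genes are 26.0% of those tested, where 11.8% of all genes tested were called lower. The 1 higher gene is 2% of them, where 7.33% of all genes were called higher. The median log2 fold change of the 50 genes was -0.92, against 0.03 over all genes tested, and 38 of 50 had a negative value, against 48.8% of all genes. With DESeq2, 14 members were lower and 3 higher, where 10.9% and 9.96% of all genes were, and with limma-voom 20 were lower and 0 higher, where 15.3% and 6.55% were. At an unadjusted p under 0.05, edgeR gave 22 lower and 3 higher. The share over all genes at that threshold was not computed. These counts, and those by role below, are therefore not read as an excess. In 29 of the 50 the 3H3P library lay above every subclone in CPM, 58.0% where the share over all genes was 30.4%. It lay below every subclone in 7, where the share over all genes was 27.1%. The 4 genes not tested were Oas1a, with 2 counts in the 3H3P library and 6 over the subclones, Oas2 with 0 and 2, Oas3 with 5 and 13, and Iigp1 with 10 and 4.

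**Figure D1:**
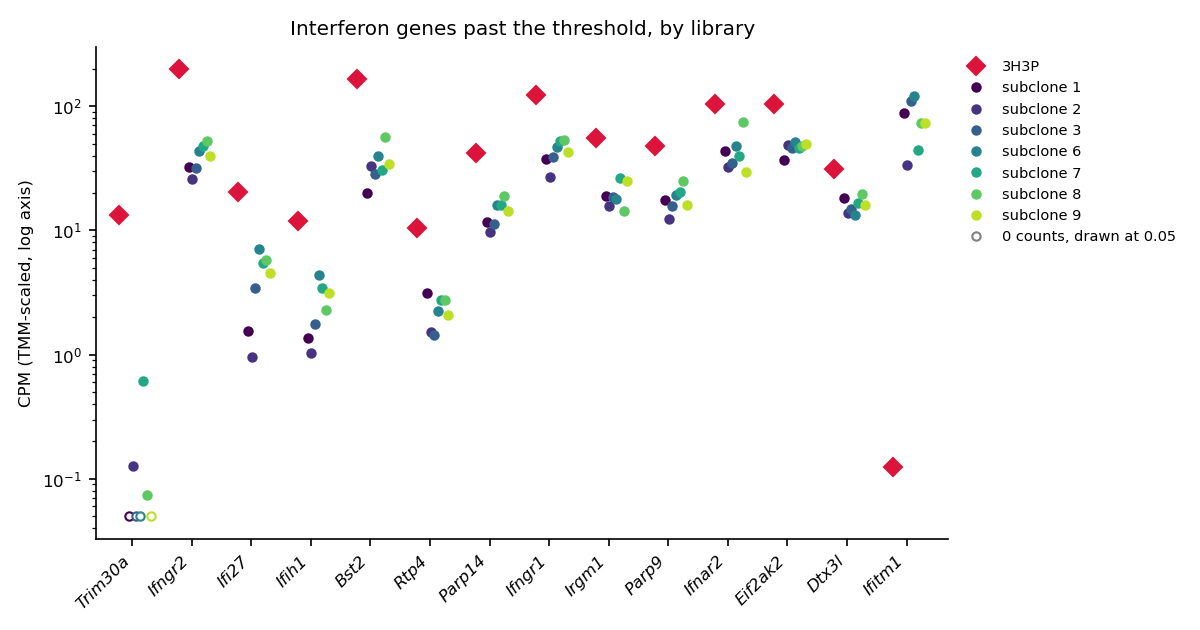
TMM-scaled CPM on a log axis for the 14 interferon genes past the adjusted p threshold, with the 3H3P library as a diamond and each subclone as a circle (open circles stand for 0 counts and are drawn at 0.05). In 13 genes the diamond lies above all 7 circles, and in Ifitm1 it lies below all of them.

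Among the receptors, both subunits of the interferon gamma receptor and 1 of the 2 subunits of the type I receptor were lower in the subclones. Ifngr2, the signalling subunit for interferon gamma, was at 198 CPM in the 3H3P library and at 25.9, 39.7 and 52.5 CPM (lowest, median and highest) in the subclones. The groups did not overlap, and the log2 fold change was -2.34 (SE 0.28, adjusted p = 0.000943), about a 5.06-fold fall. Ifngr1, which binds interferon gamma, was at 124 CPM against 27.2, 43.0 and 53.9 CPM, again with no overlap, and changed by -1.53 (SE 0.28, adjusted p = 0.00658). For the type I receptor, Ifnar2 was at 104 CPM in the 3H3P library and at 43.7, 32.5, 34.8, 48.0, 39.7, 75.1 and 29.8 CPM in subclones 1, 2, 3, 6, 7, 8 and 9. Subclone 8 stood nearer to the 3H3P library than the others did. The log2 fold change of Ifnar2 was -1.26 (SE 0.38, adjusted p = 0.0494), close to the threshold, and the call was lost in 10 of 15 alternative analyses, where adjusted p ran up to 0.163. These included the omission of any one of subclones 1, 2, 3, 6, 7 and 9, which gave adjusted p between 0.0648 and 0.0819. Ifnar1, its partner, was at 133 CPM against 64.8, 87.1 and 115 CPM, below in 7 of 7 subclones, with a log2 fold change of -0.64 that did not pass (adjusted p = 0.121).

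Ifnar1, Ifnar2 and Ifngr2 share a stretch of chromosome 16 with Il10rb, a receptor gene of the interleukin-10 family (chr16:91372783-91565623, GRCm38). Il10rb, which is not among the 54, was also lower (log2 fold change -1.55, adjusted p = 0.0121), so 3 of the 4 receptor genes there were called lower. This neighbourhood was chosen after its values were seen. Of the 10 other tested genes within 250 kb, 1 (Tmem50b) was called lower, and their median log2 fold change was 0.33.

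Downstream of the receptors, the kinase Jak2, needed by the interferon gamma receptor, fell from 282 CPM to 50.3, 81.2 and 153 CPM (log2 fold change -1.70, adjusted p = 0.0281; up to 0.0612 on the TPM scales). Jak1, which both receptors use, stood at 133 CPM in the 3H3P library and at 93.2, 122 and 150 CPM in the subclones, so the groups overlapped (adjusted p = 0.786). Tyk2, the second kinase of the type I receptor, was at 22.1 CPM against 10.97, 14.8 and 22.3 CPM (adjusted p = 0.309).

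None of the 7 transcription factors among the members passed the edgeR test (0 called, 2 lower at an unadjusted p under 0.05), while DESeq2 called 1 lower (Irf9) and limma-voom 2 (Irf9 and Stat2). Stat2 was at 34.0 CPM in the 3H3P library and at 8.86, 13.6 and 23.2 CPM in the subclones (log2 fold change -1.21, adjusted p = 0.0825). Its DNA-binding partner Irf9 was at 15.4 CPM against 6.26, 8.60 and 9.28 CPM (log2 fold change -0.93, adjusted p = 0.0514). Both lay below the 3H3P library in every subclone. Irf1, an activator induced by interferon gamma and among the 8 interferon genes of highest mean TPM, was at 57.9 CPM against 41.1, 58.0 and 93.5 CPM, so the subclones lay on both sides (log2 fold change 0.07, adjusted p = 0.918; -0.05 without subclone 8). Irf3, the factor that virus sensors activate, was at 39.8 CPM against 28.2, 29.3 and 35.5 CPM, below in all 7 subclones but without passing (log2 fold change -0.38, adjusted p = 0.185). In TPM the groups overlapped, with Irf3 at 50.7 in the 3H3P library and at 54.7 and 53.4 in subclones 1 and 3. The log2 fold change on log2(TPM + 1) was -0.12. Irf2, which can repress Irf1 targets, was at 24.5 CPM against 28.2, 30.7 and 39.4 CPM, above in all 7 subclones without passing (adjusted p = 0.250). Irf5 and Irf7 were low throughout, at 0.498 and 2.61 CPM in the 3H3P library and at medians of 0.889 and 1.70 CPM in the subclones.

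The sensors and the RNA-activated kinase gave 2 lower genes of 7. Eif2ak2 encodes PKR, a kinase that double-stranded RNA activates and that then slows translation. It was at 104 CPM in the 3H3P library and at 36.8, 48.0 and 51.4 CPM in the subclones, with no overlap and the smallest log2 fold change error among the called genes (-1.15, SE 0.18, adjusted p = 0.00306). Ifih1 encodes MDA5, a sensor of long double-stranded RNA. It fell from 11.9 CPM to 1.36, 1.02, 1.76, 4.37, 3.44, 2.30 and 3.11 CPM in subclones 1, 2, 3, 6, 7, 8 and 9 (log2 fold change -2.27, SE 0.59, adjusted p = 0.0275; 0.0526 without subclone 3). Ddx58, which encodes RIG-I, a sensor of 5′-triphosphate RNA, was at 18.7 CPM against 5.45, 7.56 and 11.6 CPM, below in all 7 subclones (log2 fold change -1.11, adjusted p = 0.0803). Mavs, the adaptor of both sensors, was at 59.3 CPM against 39.0, 53.1 and 68.0 CPM, and Adar, which edits double-stranded RNA, at 74.4 CPM against 67.9, 74.8 and 98.5 CPM. In neither case did the groups separate (adjusted p = 0.707 and 0.802). Zbp1, a sensor of Z-form nucleic acid, was under 1 CPM in every library.

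Dhx58, which encodes LGP2, a helper of MDA5, had the largest SD of log2 CPM over the subclones (1.46 at a prior count of 2, with Ifit3b also at 1.46), while Ifi44 and Rsad2 had wider ratios of highest to lowest CPM (18.7 and 15.1, against 12.7 for Dhx58). It was at 1.06 CPM in the 3H3P library, at 7.75 and 10.5 CPM in subclones 6 and 8, at 2.64 CPM in subclone 3, and at 0.831 to 1.18 CPM in subclones 1, 2, 7 and 9. The comparison with the 3H3P library therefore gave a wide error (log2 fold change 1.73, SE 1.64, adjusted p = 0.493).

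**Figure D2:**
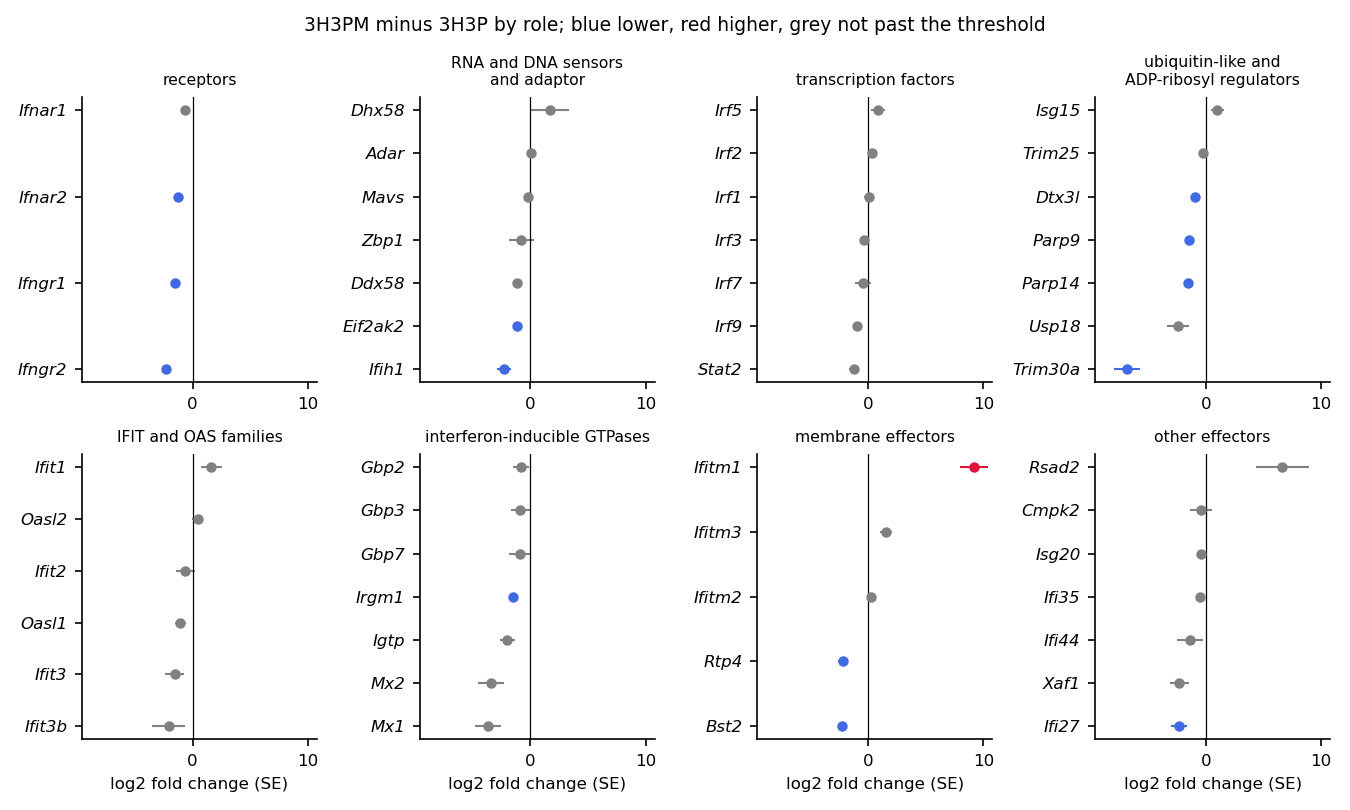
Log2 fold change of 3H3PM minus 3H3P (x axis, with its standard error) for the 50 tested interferon genes, 1 panel for each role; blue marks genes called lower, red genes called higher and grey the others. The receptors all lie left of 0, Ifitm1 is the red point far to the right, and the value of Rsad2, with 0 counts in the 3H3P library, depends on the prior count.

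Genes of ubiquitin-like modification and ADP-ribosylation gave the most lower calls, 4 of 7. Parp9 and Dtx3l encode partners, an ADP-ribosyl transferase family member and an E3 ubiquitin ligase, and Parp14 a mono-ADP-ribosyl transferase. Parp14 was at 41.7 CPM in the 3H3P library and at 9.71, 14.3 and 19.0 CPM in the subclones (log2 fold change -1.57, SE 0.30, adjusted p = 0.00844). Parp9 was at 48.2 CPM against 12.3, 17.6 and 25.0 CPM (log2 fold change -1.41, SE 0.29, adjusted p = 0.0109). Dtx3l was at 31.0 CPM against 13.3, 16.1 and 19.6 CPM (log2 fold change -0.95, SE 0.24, adjusted p = 0.0250; 0.0501 without subclone 3). The highest subclone lay below the 3H3P library for each. The 3 genes are neighbours (chr16:35832874-35972605, GRCm38) and Parp9 and Dtx3l overlap on opposite strands. No source used here says whether the counting used strand, so reads in the overlap may be divided between them, and both had fractional counts in all 8 libraries. Of 6 other tested genes within 250 kb, 1 was called lower.

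Trim30a, an interferon-inducible TRIM protein, had 213 counts in the 3H3P library (13.3 CPM) and 11 counts over all 7 subclones. Subclone 7 held 8 of those 11 and subclones 1, 3, 6 and 9 held 0, so the gene was nearly silent in the subclones (log2 fold change -6.84, SE 1.13, adjusted p = 0.00409; DESeq2 adjusted p = 0.115). Trim30a has close copies beside it on chromosome 7, and reads shared with them rest on RSEM's division. Its count was fractional in 1 of the 8 libraries. Isg15, a ubiquitin-like protein and a standard readout of type I interferon, was low in all libraries. It was at 1.24 CPM in the 3H3P library and at 1.66, 2.59 and 3.38 CPM in the subclones, above in all 7 (log2 fold change 1.01, adjusted p = 0.217). Usp18, which removes Isg15 from proteins, was at 1.06 CPM against 0, 0.208 and 0.384 CPM (adjusted p = 0.119). Trim25, a ubiquitin ligase that acts on RIG-I, was at 83.0 CPM against 51.5, 71.9 and 84.0 CPM, so the groups overlapped.

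The IFIT and OAS genes, whose products bind viral RNA or make the second messenger of RNase L, gave no call among 6 tested with edgeR, with 0 at an unadjusted p under 0.05 and 0 by DESeq2 or limma-voom. Ifit2 was at 49.7 CPM in the 3H3P library and at 75.0, 38.6, 31.2, 14.6, 32.5, 7.34 and 23.6 CPM in subclones 1, 2, 3, 6, 7, 8 and 9 (log2 fold change -0.64, adjusted p = 0.629). Subclone 1 lay above the 3H3P library and subclone 8 far below it, a 10.2-fold range within 1 group. Ifit1 was at 1.06 CPM and at 7.28, 3.26, 3.19, 2.91, 2.60, 1.04 and 2.70 CPM in the same order (log2 fold change 1.63, adjusted p = 0.237). Ifit3 was at 7.28 CPM against 0.667, 2.14 and 5.80 CPM, and its near copy Ifit3b at 2.18 CPM against 0, 0.329 and 1.54 CPM. All 4 Ifit genes were highest in subclone 1 among the subclones, and Ifit1, Ifit2 and Ifit3 were lowest in subclone 8. Ifit3 and Ifit3b share reads, with fractional counts in 5 libraries each, and the level of either alone is uncertain. Oasl1 stood at 9.58 CPM against 2.75, 3.90 and 8.11 CPM and Oasl2 at 3.24 CPM against 3.32, 4.15 and 6.49 CPM.

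Of the interferon-inducible GTPases, which attack intracellular pathogens and their vacuoles, 1 of 7 tested was called lower. Irgm1, which regulates the other members of its family, was at 55.7 CPM in the 3H3P library and at 14.3, 18.5 and 26.6 CPM in the subclones (log2 fold change -1.51, SE 0.29, adjusted p = 0.00810). No subclone reached the level of the 3H3P library. Igtp, another of that family, was at 6.53 CPM against 0.659, 1.60 and 3.18 CPM (adjusted p = 0.0587). Mx1 was at 3.61 CPM against 0, 0.110 and 0.969 CPM (log2 fold change -3.68, adjusted p = 0.0513). Its neighbour Mx2 was at 1.87 CPM against 0, 0.148 and 0.530 CPM (adjusted p = 0.0641). Mx1 passed in 5 of the 14 alternatives that tested it, among them the omission of subclone 1 (0.0485), 8 (0.0497) or 9 (0.0220). Gbp2, Gbp3 and Gbp7, guanylate-binding proteins on chromosome 3, were at 15.1, 2.36 and 1.74 CPM in the 3H3P library and at medians of 6.96, 1.32 and 0.592 CPM in the subclones, and none was called. Subclone 9 was the highest subclone for each of the 3, and its values of 16.1, 2.84 and 2.42 CPM lay above the 3H3P library.

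The membrane effectors moved in opposite directions. Bst2 encodes tetherin, which holds budding virus at the cell surface. It was at 166 CPM in the 3H3P library and at 20.1, 33.3, 28.2, 39.6, 30.7, 56.9 and 34.0 CPM in subclones 1, 2, 3, 6, 7, 8 and 9 (log2 fold change -2.26, SE 0.35, adjusted p = 0.00314). The highest of these, in subclone 8, was still below the 3H3P library. Rtp4, a receptor-transporting protein induced by interferon, was at 10.4 CPM against 1.43, 2.25 and 3.14 CPM (log2 fold change -2.19, SE 0.42, adjusted p = 0.00780). Ifitm1, whose product blocks fusion of virus at the membrane, went the other way. It had 2 counts in the 3H3P library (0.124 CPM) and 8478 over the subclones, at 88.1, 33.4, 110, 122, 44.5, 72.7 and 73.1 CPM. The ratio of counts, scaled for library size, was 637 (95% exact interval 176 to 5265, counting error only). The log2 fold change was 9.20 (SE 1.22, adjusted p = 0.00146), with every subclone far above, and limma-voom did not call it (adjusted p = 0.0923).

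Ifitm1 lies between its relatives Ifitm2 and Ifitm3, which block entry from endosomes, on chromosome 7. Ifitm3 was at 138 CPM in the 3H3P library and at 538, 216, 539, 513, 288, 373 and 365 CPM in the subclones, above in all 7 (log2 fold change 1.55, SE 0.50, adjusted p = 0.0585). It passed with DESeq2 (0.00763) and without subclone 2 (0.0204). Ifitm2 was at 128 CPM against 91.2, 152 and 186 CPM, with subclone 2 below the 3H3P library (log2 fold change 0.22, adjusted p = 0.666). Of 19 other tested genes within 250 kb of the 3, 2 were called higher and 2 lower, and their median log2 fold change was -0.05. This neighbourhood too was described after its values were seen.

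**Figure D3:**
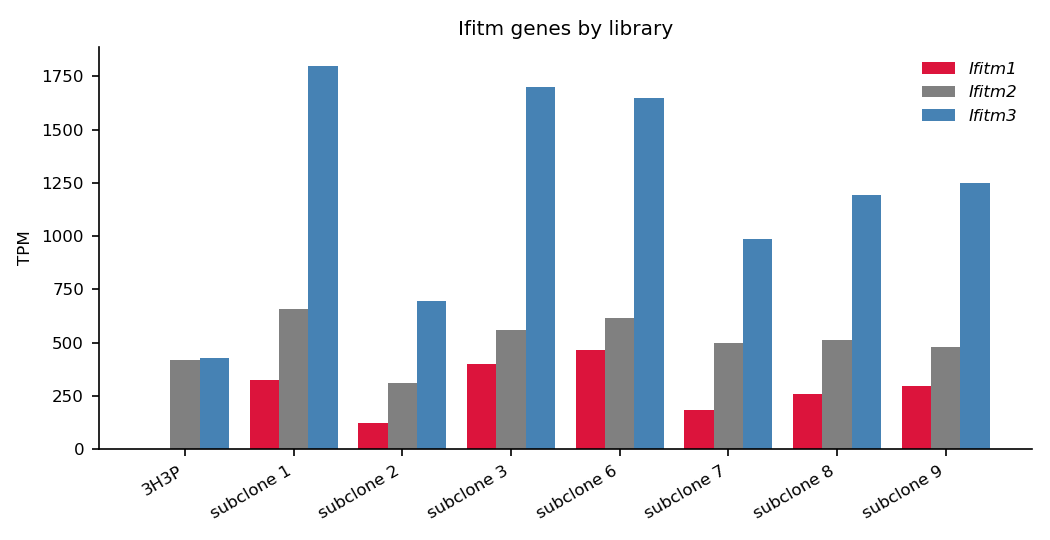
TPM (a level per transcript length, summing to the same total in every library) of Ifitm1, Ifitm2 and Ifitm3 in each of the 8 libraries, as bars from 0. Ifitm1 is at 0.3 TPM in the 3H3P library and at 122 to 466 TPM in the subclones, while Ifitm3 is the most abundant of the 3 in every library.

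Per transcript length, these 3 genes and Bst2 made up most of the programme's RNA. On the TPM scale Ifitm3 was at 429 in the 3H3P library and at 1324 ± 409 in the subclones (SD, n = 7), Ifitm2 at 420 and 519 ± 113, Ifitm1 at 0.30 and 292 ± 119, and Bst2 at 409 and 90.0 ± 28.6. Ifitm1 contributed 0.0353% of the summed TPM of the 3 Ifitm genes in the 3H3P library and 13.3% ± 2.33 in the subclones, while the share of Ifitm2 was 49.5% and 24.9% ± 3.09. The sum over all 54 genes was 2142 TPM in the 3H3P library and 1616 to 3420 TPM in the subclones, so the groups overlapped. Without the 3 Ifitm genes it was 1293 TPM against 489 to 787 TPM, below in all 7 subclones. These sums are descriptions and were not tested.

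The start regions of the 3 Ifitm genes are shown because they lie side by side and Ifitm1 alone was nearly absent from 1 library. The sequences are RefSeq's (GRCm38.p6), 5′ to 3′ on the gene's strand, and capitals mark the core letters of the interferon-stimulated response element (GAAA, any 2 bases, GAAA) on either strand. The stretches of Ifitm1 (chr7:140967976-140968075, plus strand) and Ifitm2 (chr7:140955962-140956061, minus strand) are the 100 bases before the RefSeq start, and that of Ifitm3 (chr7:141010716-141010742, minus strand) is 27 bases just after it. GENCODE places the first start of Ifitm1 further upstream, at base 140967221, which the window does not cover.
Ifitm1: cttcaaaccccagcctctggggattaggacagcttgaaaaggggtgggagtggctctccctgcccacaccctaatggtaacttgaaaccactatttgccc
Ifitm2: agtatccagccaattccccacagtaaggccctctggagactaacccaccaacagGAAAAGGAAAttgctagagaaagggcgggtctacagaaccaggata
Ifitm3: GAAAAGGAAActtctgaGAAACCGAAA
The letters are in the windows of Ifitm2 and Ifitm3 and not in that of Ifitm1, which says only that this window does not hold them.

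The same letters were searched in the RefSeq promoter windows of all members (250 bases before to 50 after the start, both strands, overlapping matches allowed). A window was found for 43 of the 54. It held the response element's letters in 21 of 43 (48.8%), against 3.99% of 27025 mouse genes with a window. The letters TTCNNNGAA of the gamma-activated sequence were in 14 of 43 (32.6%), against 9.55% of genes. The response element's letters were in 5 of the 9 lower genes with a window and in 14 of the 31 that were not called. The 6 stretches printed here, of 60 bases each, are shown because genes that were lower and genes that were not carry the same letters, with Bst2 and Irgm1 called lower and the others not called. They are at chr8:71537566-71537625 (Bst2, minus strand), chr11:48871421-48871480 (Irgm1, minus), chr4:156200857-156200916 (Isg15, minus), chr19:34640769-34640828 (Ifit1, plus), chr19:34583364-34583423 (Ifit3, plus) and chr19:34607760-34607819 (Ifit3b, plus), with the letters, read on either strand, in capitals.
Bst2: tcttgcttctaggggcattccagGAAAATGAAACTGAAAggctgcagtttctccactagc
Irgm1: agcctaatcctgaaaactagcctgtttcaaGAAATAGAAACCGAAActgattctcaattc
Isg15: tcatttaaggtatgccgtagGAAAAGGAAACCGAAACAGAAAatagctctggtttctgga
Ifit1: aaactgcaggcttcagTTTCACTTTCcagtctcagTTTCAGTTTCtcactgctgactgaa
Ifit3: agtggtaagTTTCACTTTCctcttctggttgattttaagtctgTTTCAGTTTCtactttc
Ifit3b: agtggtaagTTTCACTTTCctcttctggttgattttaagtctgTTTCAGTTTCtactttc
Each stretch holds at least 2 matches, and those of Ifit3 and Ifit3b are identical over all 60 bases.

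The remaining effectors gave 1 lower gene of 7. Ifi27, a mitochondrial and nuclear-envelope protein strongly induced by type I interferon, was at 20.5 CPM in the 3H3P library and at 1.54, 0.958, 3.46, 7.02, 5.50, 5.78 and 4.50 CPM in subclones 1, 2, 3, 6, 7, 8 and 9 (log2 fold change -2.32, SE 0.71, adjusted p = 0.0497). All 7 lay below, but the call was lost in 8 of 15 alternatives, where adjusted p ran up to 0.154, among them the omission of subclone 1 (0.0543), 3 (0.0868), 7 (0.0622) or 9 (0.0735). Xaf1, a proapoptotic partner of XIAP, was at 16.1 CPM against 1.01, 0.703, 2.64, 4.44, 2.22, 7.49 and 4.71 CPM in the same order (log2 fold change -2.28, adjusted p = 0.0882). It passed with limma-voom (0.0240) and without subclone 8 (0.0399). Rsad2 encodes viperin, which makes a chain-terminating nucleotide. It had 0 counts in the 3H3P library and 84 over the subclones, at 0.118 to 1.79 CPM, at least 4.21-fold higher when the 0 is set to 3 counts (adjusted p = 0.0727). It passed with DESeq2, and without subclone 1 (0.0376). Cmpk2, a nucleotide kinase that lies beside Rsad2, was at 0.933 CPM against 0.256, 0.445 and 1.46 CPM. Isg20, an exonuclease, was at 16.7 CPM against 9.18, 12.5 and 17.0 CPM, and Ifi35 at 12.6 CPM against 5.33, 10.1 and 12.6 CPM.

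The interferon genes also varied among the subclones themselves. Over the 7 subclones the median SD of log2 CPM was 0.48 for the 50 tested genes and 0.32 for all 14634 genes tested. It was above 1 in 8 of the 50 (16%, against 9.53% of all genes): Dhx58, Ifit3b, Xaf1, Ifi44, Mx1, Ifit2, Ifi27 and Ifit3. Low counts widen this SD, and 3 of the 8 genes (Ifit3b, Mx1 and Ifi44) had medians under 0.5 CPM. Subclones 6 and 8 were each the highest of the 7 in 15 of the 50 genes, and subclone 2 in 0. Subclone 2 was the lowest in 18 genes and subclone 1 in 15. Where several subclones tied at 0 counts, only 1 was counted as lowest: subclone 1 for Trim30a and Mx2, and subclone 2 for Ifit3b. The same counts over all genes tested were not computed, so this order is not read as particular to the interferon genes.

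**Figure D4:**
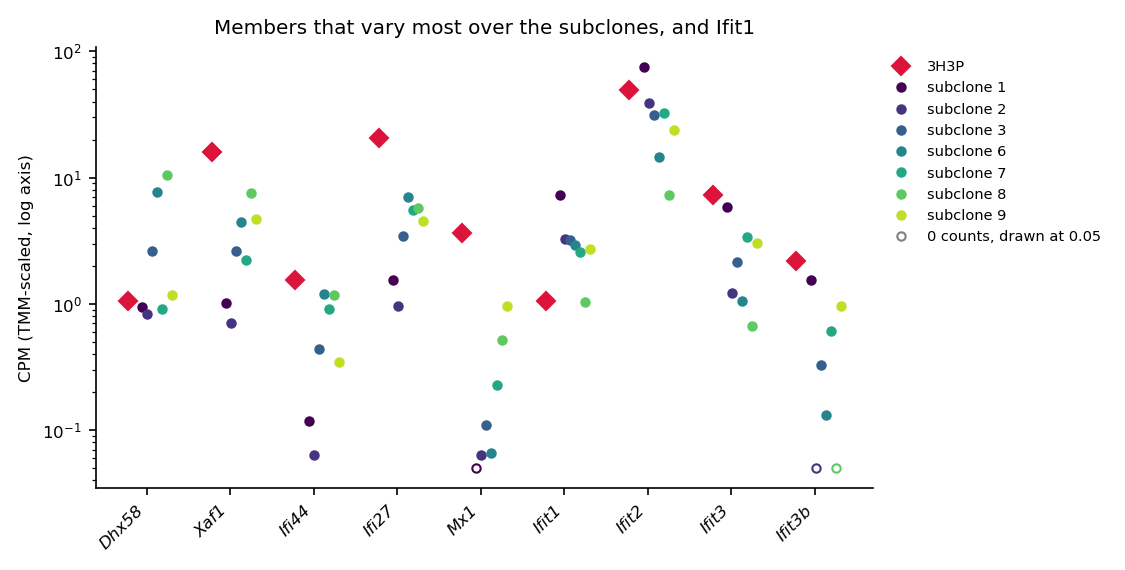
TMM-scaled CPM on a log axis of the 8 interferon genes of largest spread over the subclones and of Ifit1, with the 3H3P library as a diamond and the subclones as circles coloured by number (open circles stand for 0 counts and are drawn at 0.05). Dhx58 runs from 0.831 to 10.5 CPM over the subclones, Ifit2 from 7.34 CPM in subclone 8 to 75.0 CPM in subclone 1.

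The genes did not share 1 order of subclones. Dhx58, Xaf1, Ifi44 and Ifi27 were lowest in subclone 1 or 2 and highest in subclone 6 or 8. Ifi44, for example, was at 0.118 and 0.0639 CPM in subclones 1 and 2 and at 1.19 CPM in both subclones 6 and 8. The Ifit genes ran the other way between subclones 1 and 8. Mx1 and the 3 Gbp genes were highest in subclone 9. The range of CPM over the subclones was 1.77-fold for the receptor gene Ifnar1, 1.98-fold for Ifngr1, 2.03-fold for Ifngr2 and 2.52-fold for Ifnar2, and 1.40-fold for Eif2ak2. With 1 library for each subclone, a difference between 2 subclones has no replicate check.

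**Figure D5:**
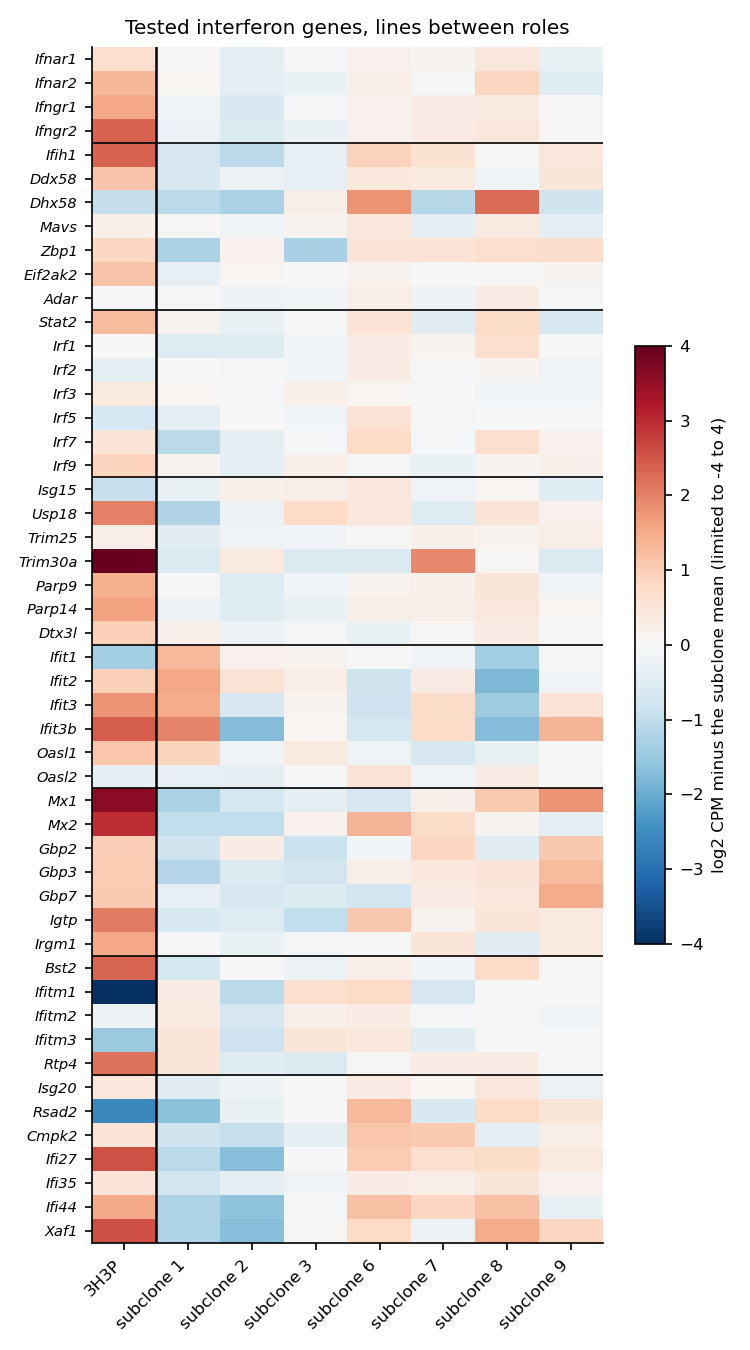
Log2 CPM of the tested interferon genes (rows, by role) in each library (columns), as the difference from each gene's mean over the 7 subclones, with colours limited to -4 and 4. The column of the 3H3P library is above the subclone mean in 38 of 50 rows, and the Ifit rows and the Dhx58, Xaf1 and Ifi44 rows peak in different subclones.

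Beyond the 54, a wider list of 113 other genes of interferon production, signalling and response was examined, of which 74 were tested. In the subclones 30 were lower (40.5%, against 11.8% of all genes) and 2 were higher, with a median log2 fold change of -1.18. This list was chosen with earlier results of these data known, so the share is a description. The 30 include neighbouring relatives counted singly. These are 5 of 5 tested on chromosome 1 (Aim2, Ifi203, Ifi204, Ifi207 and Mndal) and the 4 Gbp genes named below. Reads shared between such relatives rest on RSEM's division. The 5 lower genes of smallest p were Aim2, Slfn2, Gbp6, Ifi207 and Ikbke. Aim2, the DNA sensor of an inflammasome, was at 45.9 CPM in the 3H3P library (738 counts) and at 0 to 0.138 CPM in the subclones (4 counts in all), with an adjusted p of 8.58e-05. Slfn2, a Schlafen gene that restrains lymphocyte activation, was at 112 CPM against 0, 0.296 and 0.761 CPM (adjusted p = 0.000185). Ifi207, of the DNA-binding Ifi200 family, was at 21.3 CPM against 0 to 0.222 CPM (adjusted p = 0.000703; DESeq2 0.0815). Gbp6, a guanylate-binding protein of the chromosome 5 cluster, was at 84.8 CPM against 0.994, 1.68 and 3.64 CPM (log2 fold change -5.37, adjusted p = 0.000228). The 4 listed genes tested there (Gbp4, Gbp6, Gbp8 and Gbp9) were called lower, with a median log2 fold change of -5.21, as was Gbp10, which lies among them and is not on the list (log2 fold change -6.42, adjusted p = 0.00146). On chromosome 3, 0 of the 3 members were called, a contrast picked after the values were seen and not tested. Ikbke, a kinase that activates Irf3, was at 115 CPM against 8.05, 11.9 and 20.5 CPM (log2 fold change -3.16, adjusted p = 0.00107).

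The 2 higher genes were Cgas, the enzyme that senses cytosolic DNA, and Pias1, a SUMO ligase that restrains STAT activity. Cgas was at 1.93 CPM in the 3H3P library and at 7.63, 9.72 and 15.0 CPM in the subclones (log2 fold change 2.39, SE 0.45, adjusted p = 0.00734). Pias1 was at 34.6 CPM against 47.3, 53.4 and 59.3 CPM (log2 fold change 0.62, SE 0.19, adjusted p = 0.0456), and its adjusted p reached 0.0752 in alternatives. For both, every subclone lay above the 3H3P library.

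The interferons themselves were close to undetectable. Of 21 interferon genes listed, 17 had 0 counts in every library. The other 4, Ifnb1, Ifne, Ifnk and Ifnz, had 12 counts in all, none in the 3H3P library and at most 6 in any subclone. A count of 0 in a library allows up to 3 counts, so interferon RNA below that level was not detectable at this depth.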

How the data were processed

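RNA was measured in 8 libraries. Per the labels' protocols, total RNA (TRIzol) was made into libraries with a directional NEBNext Ultra kit. FastQC, STAR, RSEM and DESeq2 were used on GRCm38 (mm10), per the submitters' processing notes, without versions or options. The authors deposited RSEM's expected count and TPM for each gene, per the file headers. RSEM shares a read that fits several genes between them, so expected counts need not be whole. Positions came from GENCODE vM21, which held 53 of the 54 members, and promoter sequences from RefSeq (GRCm38.p6). One listed gene was found under its current symbol, Cgas.

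Expected counts were rounded and tested with edgeR 4.0.16 (R 4.3.3; filterByExpr by group, TMM, quasi-likelihood F test), 3H3PM minus 3H3P, with Benjamini-Hochberg adjustment over all genes tested and calls at an adjusted p under 0.05. With 1 library, 3H3P adds nothing to the 6 residual degrees of freedom, and its variation is taken to equal that of the 7 subclones. Each subclone is its own isolate, so the p-values rest on isolate-to-isolate spread, with no repeat culture of any. The SE is the size of the log2 fold change divided by the square root of F. CPM values are TMM-scaled, and log2 CPM used a prior count of 2. Alternatives were library size alone, DESeq2 size factors, DESeq2 1.42.0, limma-voom 3.58.1, no filter on low counts, a mean CPM of at least 1, log2(TPM + 1), log2(TPM + 0.1) and the omission of each subclone. Log2 fold changes on log2(TPM + 1) understate the change of low genes. On log2(TPM + 0.1) some were smaller than with edgeR (Mx1, -3.01 against -3.68) and some larger (Ifit3b, -2.35 against -2.06). On simulated data for this comparison, run on 13756 genes, edgeR called 2% of 50 genes changed 2-fold, 46% of 50 changed 4-fold, 84% of 50 changed 8-fold and 96% of 50 changed 16-fold. Only these genes, all of subclone mean above 1 CPM, were changed there, while 1727 real genes were called lower and 1072 higher. The adjustment is stricter with few changed genes, so these rates are not those of the real comparison.

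Values by library are given for members called, the 8 of highest mean TPM, the 8 of largest SD over subclones and those with 1 subclone apart by Dixon's ratio, and for the up to 5 other pathway genes of smallest p in each direction. Further genes and the chromosome neighbourhoods were picked with their values in view. The members and lists were chosen with earlier results of these data known.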

Additional observations from a re-analysis of the deposited data

Results flagged for a closer look

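In 6 of the 50 tested interferon genes 1 subclone stood apart from the other 6 by Dixon's ratio, taken on CPM, at its 95% critical value. Chance gives this in about 1 in 20 groups of normally distributed values, which CPM at low counts need not be. The share over all genes tested was not computed, so the 6 genes are not read as an excess. Ifnar2 was at 75.1 CPM in subclone 8, the high side. Eif2ak2 was at 36.8 CPM in subclone 1, the low side. The other 4 were high values: Irf5 at 1.39 CPM in subclone 6, Trim30a at 0.611 CPM in subclone 7, Ifit1 at 7.28 CPM in subclone 1 and Gbp7 at 2.42 CPM in subclone 9.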

How the results depend on the processing

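The number of interferon genes called lower, 13 with edgeR, was 20 with limma-voom and 9 to 16 in the other 14 alternatives. The same 13 genes were among the 20, and 12 of them among the 14 called by DESeq2, which left out Trim30a. The number called higher, 1 with edgeR, was 3 with DESeq2 (Ifitm1, Ifitm3 and Rsad2), 0 with limma-voom, and 1 to 2 when each subclone was left out, the second gene being Rsad2 without subclone 1 and Ifitm3 without subclone 2. The median log2 fold change stayed between -1.14 and -0.69, and the median SD over subclones between 0.36 and 0.49. The log2 fold change of Irf5 changed sign on the TPM scales, to -0.065 on log2(TPM + 1) and -0.16 on log2(TPM + 0.1). That of Irf1 ran from -0.049 (without subclone 8) to 0.15 as each subclone was left out. On the TPM scales the calls of Ifih1 (adjusted p = 0.110 on log2(TPM + 0.1)) and Dtx3l (0.0676 and 0.0846) were also lost. The cause of these changes was not tested. No paired analysis was possible because 3H3P has 1 library and the labels pair it with no subclone. Depth limits what can be said of Oas1a, Oas2, Oas3, Iigp1 and the interferon genes, and the lone 3H3P library gives no estimate of its own spread.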
